A study of Saccharomyces cerevisiae S288C with 72 samples.

Results

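Budding yeast lacking its mitochondrial NADH dehydrogenases was compared with wild type just after each strain lost HXT3 mRNA, which encodes a low-affinity glucose carrier. The comparison used 8 of the 72 RNA-seq libraries of the series. They were the nde1∆ nde2∆ ndi1∆ strain (cDBY0085, the mutant from here on) at 13, 14, 15 and 16 h, and wild type (cDBY001) at 16, 18, 20 and 22 h, which are the first 4 time points of each strain after the loss. All strains are S288C derivatives and grew in flasks of yeast nitrogen base with ammonium and 2% glucose. The third strain, cox4∆ (cDBY0045), lacks a subunit of cytochrome c oxidase and was used for comparison at 14, 15, 16 and 18 h, its own first 4 time points after the loss. Each strain has 24 time points with 1 library each, so 4 time points of 1 strain stand in for replicates. The p-values below therefore measure the spread along a time course and not that between independent cultures, and each genotype is represented by 1 strain.

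The hours were chosen by the HXT3 levels of each strain, so these are a description with no test. In the mutant HXT3 stood at 1681 TPM (abundance relative to a fixed total of transcripts) at 11 h and 231 TPM at 12 h, just outside the window, and at 94.5, 144, 165 and 142 TPM at 13, 14, 15 and 16 h. In cox4∆ it was 1815 TPM at 12 h and 499 TPM at 13 h, then 62.3, 70.5, 94.6 and 111 TPM inside the window. In wild type it was 1639 TPM at 14 h and 834 TPM at 15 h, then 78.6, 57.9, 60.9 and 55.8 TPM at 16, 18, 20 and 22 h. The mutant passed the drop 3 h of clock time before wild type and kept the higher remaining level.

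**Figure D1:**
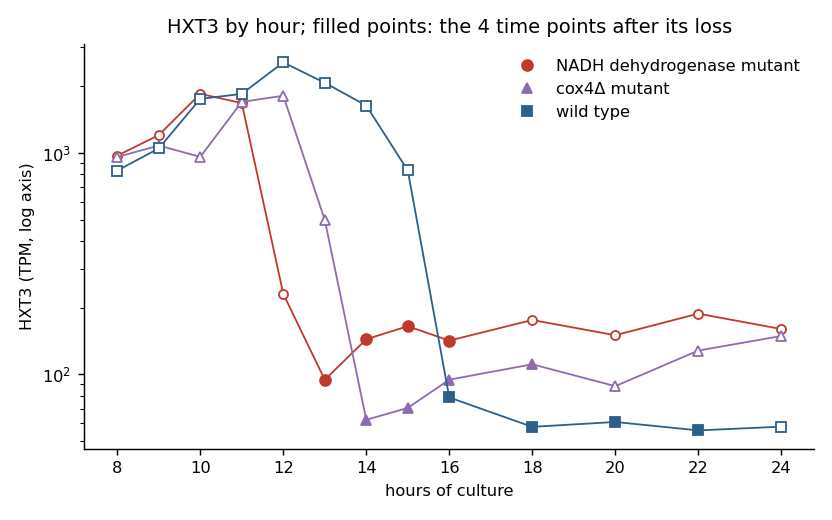
HXT3 level in TPM (log axis) against hours of culture for the mutant, cox4∆ and wild type, 1 point per library, with the 4 libraries of each window marked. The mutant drops to 231 TPM at 12 h and 94.5 TPM at 13 h, and wild type to 834 TPM at 15 h and 78.6 TPM at 16 h.

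Saccharomyces cerevisiae has no proton-pumping complex I. Ndi1, on the matrix face of the inner mitochondrial membrane, and Nde1 and Nde2, on its cytosolic face, pass electrons from NADH to ubiquinone. Cells that run out of glucose normally turn to the ethanol and acetate they have made, which requires respiration, the glyoxylate cycle and gluconeogenesis. The genes of these pathways are repressed by glucose, and the activators Cat8, Sip4, Adr1 and the Hap complex switch them on when glucose is gone. Cell separation is a different programme, in which the daughter cell makes chitinase and glucanases that cut the septum after division.

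The targeted genes matched the labels. NDE1 had 0.956, 0.889, 1.87 and 1.34 TPM in the mutant, against 1206, 1130.2, 1228 and 1074 TPM in wild type. NDI1 had 0.31 to 2.08 TPM in the mutant and 329.8 to 613 TPM in wild type, and NDE2 0.1 to 0.167 TPM in the mutant and 112 to 165 TPM in wild type. The lowest value in the deposited table is 0.1 TPM, and 65 to 134 genes stood there in the mutant libraries, against 43 to 62 in the wild-type libraries. RNA composition differed between the strains. The 10 most abundant genes of a library held 27.3 to 31.5% of its TPM in the mutant and 17.4 to 21.7% in wild type. CUP1-1, the copper metallothionein gene, alone held 4.39 to 10.2% in the mutant, 3.62 to 12.2% in cox4∆ and 1.06 to 1.34% in wild type. TPM sums to a fixed total, so such gains lower the values of other genes. The median log2 difference over all genes was -0.67, and it was -0.45 for the mutant's 13 h library and -0.68 to -0.72 for the others. Rescaling without CUP1-1, a setting chosen after seeing the data, gave -0.59. What part such gains had in the shift was not tested. Each count is therefore given also after median-of-ratios scaling. It divides every library by its median gene-wise ratio to the geometric mean of the libraries. The median over all genes then moved to -0.04. Library labels open with the letter C or D in the mutant and A or B in wild type, and what the letters stand for is not given in the sources used here, so a grouping by letter and the strain cannot be told apart. In bulk RNA, fewer cells with a transcript and less of it per cell cannot be told apart either.

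Of 5721 genes tested with limma on log2(TPM + 1), 97 (1.7%) were higher and 1639 (28.6%) lower in the mutant, at an adjusted p under 0.05 and a fold of at least 2. After median-of-ratios scaling 411 (7.18%) were higher and 323 (5.65%) lower. These shares of all genes are the background for the list counts below. All 97 genes higher in TPM were among the 411, and all 323 lower after scaling were among the 1639. The mutant's highest genes were led by SUC2 (3.67), which encodes secreted invertase, and the cell wall mannoprotein gene TIP1 (3.16), with the log2 difference in parentheses. Then came the chitinase gene CTS1 (2.95), the phosphate carrier gene PHO89 (2.85) and the thioredoxin peroxidase gene TSA2 (2.61). DSE2 (2.59), CUP1-1 (2.54), HPF1 (2.48), DSE4 (2.31), SPG1 (2.24), DSE1 (2.22), EGT2 (2.18), SUN4 (2.17), ERR3 (2.16) and SCW11 (2.06) completed the 15, of which 7 act in separation of daughter from mother. At the other end stood SFC1 (-6.1), ICL1 (-5.84), PCK1 (-5.4), FBP1 (-5.39), ECM13 (-5.12), MLS1 (-5.12), ADH2 (-4.63) and SIP4 (-4.25). LSO1 (-3.96), FTR1 (-3.87), STL1 (-3.87), AGP1 (-3.81), IDP2 (-3.7), RKI1 (-3.55) and MDH2 (-3.54) followed. Among these 30 genes PHO89 (1.77) and SPG1 (1.02) lost the call when the mutant's window began at 12 h, and the others kept it under every setting tried.

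The genes that let yeast build sugar from acetate had the lowest median of all lists but the deleted genes. Of 10 tested genes for the glyoxylate cycle or gluconeogenesis, 8 were lower and 0 higher, with a median log2 difference of -4.41 (-3.73 after median-of-ratios scaling), and 7 were lower after that scaling. The sequences below show, for 6 of the 8 lower genes, a match to the core of the carbon source responsive element, which Cat8 and Sip4 bind. The search covered both strands of the 600 bases before each coding start for CGG and GGA with 6 bases between, in RefSeq R64, the sacCer3 build of the files. Each run is 30 bases of the gene's strand with the match in capitals, read from the opposite strand where it begins with TCC.

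Of several matches in a promoter 1 is shown (FBP1 held 3, MLS1 3 and PCK1 2, and matches in FBP1 overlap).
ICL1 (chrV:287293-287322, minus strand): ccccaggttTCCATTCATCCGagcgatcac
MLS1 (chrXIV:405818-405847, plus strand): cattgctatCGGCTCAATGGAaatccccat
MDH2 (chrXV:83333-83362, minus strand): ggccttcccCGGCCAAATGGActcatcatc
PCK1 (chrXI:630581-630610, plus strand): ggacgctgaCGGGTGAATGGAgatctggat
FBP1 (chrXII:875276-875305, minus strand): tctcttttcCGGACGGATGGAatcgccgct
SFC1 (chrX:609184-609213, plus strand): gcgcccgccCGGAGAAATGGAcgttggcga

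The same search matched 500 of 5999 promoters in the genome (8.33%), and no match was found for IDP2 or CIT2. A match describes letters, and no binding was measured.

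Isocitrate lyase and malate synthase are the enzymes particular to the glyoxylate cycle. ICL1 (YER065C, chromosome V, 285241 to 286914), for the lyase, had 76.4, 24.2, 21.7 and 16.8 TPM in the mutant, against 1051, 1857, 2532 and 1713 TPM in wild type (log2 difference -5.84 ± 0.42 SE, adjusted p = 3.7e-06). MLS1 (YNL117W, chromosome XIV, 406358 to 408022), for the synthase, had 73.6, 31, 33.6 and 28.9 TPM in the mutant, against 1099, 1485, 1735 and 1284 TPM in wild type (log2 difference -5.12 ± 0.27 SE, adjusted p = 1.9e-08). Every mutant library was below every wild-type library for both genes, and within the mutant the 13 h library was highest. SFC1 (YJR095W, chromosome X, 609773 to 610741), for the carrier that exchanges cytosolic succinate for mitochondrial fumarate, had 9.96, 6.17, 5.75 and 7.83 TPM in the mutant, against 284, 803, 725 and 627 TPM in wild type (log2 difference -6.1 ± 0.29 SE, adjusted p = 7.3e-09). PCK1 (YKR097W, chromosome XI, 631152 to 632801), for phosphoenolpyruvate carboxykinase, had 33.5, 31.9, 28.3 and 28.3 TPM in the mutant, against 719, 1861, 1757 and 1327 TPM in wild type (log2 difference -5.4 ± 0.26 SE, adjusted p = 7.3e-09). FBP1 (YLR377C, chromosome XII, 873746 to 874792), for fructose bisphosphatase, had 30.2, 28.5, 29.5 and 27 TPM in the mutant, against 869, 1856, 1379.6 and 1084 TPM in wild type (log2 difference -5.39 ± 0.21 SE, adjusted p = 9.9e-10). These last enzymes catalyse the irreversible steps of gluconeogenesis, and their mutant and wild-type levels lay far apart without overlap. MDH2, for the cytosolic malate dehydrogenase, had 148, 65.9, 65.4 and 54 TPM in the mutant, against 428, 1042, 1362 and 1079.9 TPM in wild type (log2 difference -3.54 ± 0.37 SE, adjusted p = 2.2e-05), and IDP2, for the cytosolic NADP-dependent isocitrate dehydrogenase, 103, 53.9, 49.5 and 47.4 TPM in the mutant, against 683, 931, 811 and 771 TPM in wild type (log2 difference -3.7 ± 0.23 SE, adjusted p = 1e-07). CIT2, for peroxisomal citrate synthase, had 593 to 932 TPM in the mutant and 1261 to 1906 TPM in wild type (log2 difference -1.14 ± 0.19 SE, adjusted p = 0.00029), a difference that lost its call after median-of-ratios scaling (-0.44). Acetyl-CoA synthetase ACS1 (log2 difference -0.89, called at -1.09 without the mutant's 13 h library and at -1.02 without the wild-type 22 h library) and pyruvate carboxylase PYC1 (-0.44) were not called.

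**Figure D2:**
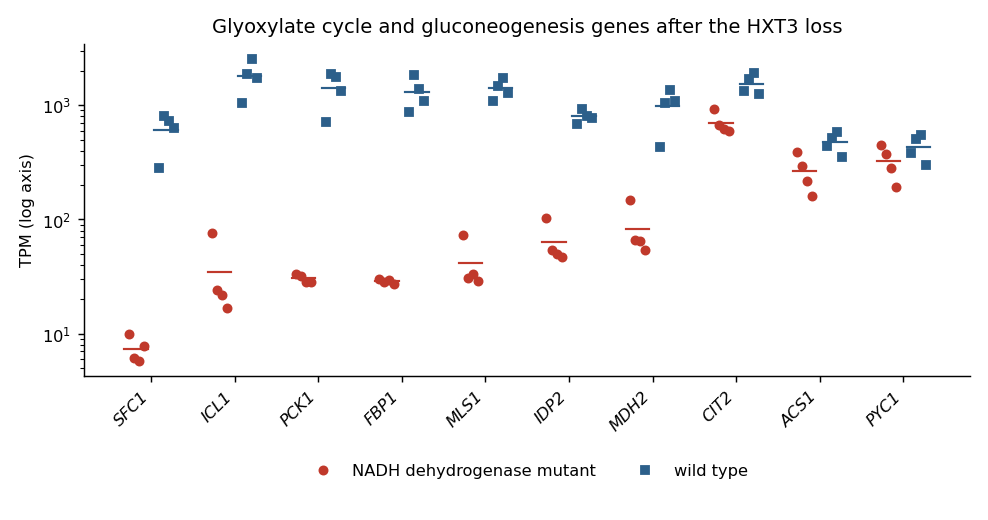
TPM (log axis) of genes of the glyoxylate cycle and gluconeogenesis in each of the 4 libraries after the HXT3 loss, in order of hour, with the mutant left and wild type right of each tick and a line at the mean. ICL1 stands at 16.8 to 76.4 TPM in the mutant, below the 1051 to 2532 TPM of wild type.

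The low levels lasted to the end of the course. From 18 to 58 h ICL1 ranged over 15.3 to 24.4 TPM in the mutant, 12.2 to 21 TPM in cox4∆ and 742 to 2532 TPM in wild type. PCK1 ranged over 19.8 to 32.4 TPM in the mutant and 445 to 1861 TPM in wild type, and FBP1 over 16.2 to 43.4 TPM in the mutant and 440 to 1856 TPM in wild type. MLS1 ranged over 13.1 to 26.3 TPM in the mutant and 576 to 1735 TPM in wild type. For these 4 genes the highest of the mutant libraries stayed below the lowest of the wild-type libraries, whose range includes the window libraries at 18, 20 and 22 h.

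Genes of ethanol and acetate use went in both directions. Of 15 tested, 3 were higher and 4 lower (4 higher and 2 lower after median-of-ratios scaling). ADH2 (YMR303C, chromosome XIII, 873291 to 874337), for the alcohol dehydrogenase that oxidises ethanol, had 10.1, 8.1, 10.7 and 7.44 TPM in the mutant, against 123, 333, 335 and 264 TPM in wild type (log2 difference -4.63 ± 0.28 SE, adjusted p = 7.8e-08). The nuclear and cytosolic acetyl-CoA synthetase gene ACS2 had 64.3 to 96.7 TPM in the mutant and 216 to 405 TPM in wild type (log2 difference -1.91 ± 0.21 SE, adjusted p = 1.4e-05), and ACH1, for a CoA transferase acting on acetate, 454 to 1030.2 TPM in the mutant and 1029 to 1741 TPM in wild type (log2 difference -1.22 ± 0.25 SE, adjusted p = 0.00098). The acetate carrier gene ADY2 had 35.5 to 48 TPM in the mutant and 69.9 to 128 TPM in wild type (log2 difference -1.15 ± 0.20 SE, adjusted p = 0.00038), a call lost without the wild-type 20 h library (-0.97). Against these, ATO2, a paralogue of ADY2, was higher, at 1826, 2651, 2274 and 1823 TPM in the mutant and 989.7, 759, 737 and 487 TPM in wild type (log2 difference 1.55 ± 0.22 SE, adjusted p = 7.2e-05). The aldehyde dehydrogenase genes ALD3 (1.25) and ALD4 (1.14) were higher too, but without the mutant's 13 h library they stood at 0.93 and 0.97 and only 1 of the list remained higher. ALD4 is the mitochondrial enzyme of acetate formation, while the cytosolic ALD6 was at 491 to 765 TPM in the mutant and 451 to 811 TPM in wild type (-0.07, not called). The remaining genes, ATO3 (-0.63), ADH5 (0.54), ALD5 (-0.45), ADH3 (-0.41), ALD2 (0.17) and ADH4 (0.12), were not called.

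Of 13 genes for factors of respiration and gluconeogenesis, 5 were lower and 0 higher (3 higher and 4 lower after scaling). SIP4, for a zinc cluster activator of gluconeogenic genes, had 5.99, 3.2, 3.21 and 2.64 TPM in the mutant, against 51, 79.2, 137 and 101 TPM in wild type (log2 difference -4.25 ± 0.29 SE, adjusted p = 2.9e-07). CAT8, for its upstream activator, had 27.5, 21.8, 18.1 and 15.6 TPM in the mutant and 14.2, 18.8, 14.5 and 11.4 TPM in wild type (0.46, not called), and ADR1 94.4, 80.7, 66.4 and 59.5 TPM in the mutant and 44.9, 58.9, 59 and 36.6 TPM in wild type (0.59, not called). The genes for these activators were thus not called lower, and after scaling CAT8 (1.11), ADR1 (1.27) and the repressor gene MIG3 (1.44) were called higher. Genes of the Hap complex, which activates respiratory genes, were lower for HAP3 (-2.28), HAP5 (-1.68) and HAP4 (-1.09), and HAP2 was at -0.77, called without the mutant's 13 h library (-1.01). HAP4, the regulatory subunit, had 193, 123, 118 and 118 TPM in the mutant and 306, 312, 311 and 236 TPM in wild type, and was no longer called after scaling (-0.40). ERT1 (-1.8), for another zinc cluster regulator of gluconeogenesis, was lower, and HAP1 (-0.48), RDS2 (-0.39), MIG1 (0.20) and MIG2 (-0.25) were not called.

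The tricarboxylic acid cycle was lower at its entry, while few respiratory chain subunits were called. Of 13 tested cycle genes 10 were lower, with a median log2 difference of -1.45 (-0.76 after median-of-ratios scaling), and 5 were lower and 1 higher after scaling. ACO1, for mitochondrial aconitase, had 209, 69.6, 72.2 and 59.2 TPM in the mutant, against 865, 860.1, 886 and 639.8 TPM in wild type (log2 difference -3.17 ± 0.32 SE, adjusted p = 1e-05). CIT1, for mitochondrial citrate synthase, had 794, 552, 524 and 467 TPM in the mutant, against 2734, 2484, 2819 and 2261 TPM in wild type (log2 difference -2.16 ± 0.18 SE, adjusted p = 2.2e-06). IDH1 (-2.7) and IDH2 (-2.61), the subunits of NAD-dependent isocitrate dehydrogenase, were both lower, IDH1 at 101 to 195 TPM in the mutant and 732 to 1025 TPM in wild type, and IDH2 at 85 to 123 TPM in the mutant and 542 to 646 TPM in wild type. The reactions from citrate to oxoglutarate are also the start of glutamate synthesis. Later cycle genes were less low, among them KGD1 (-1.19) of the oxoglutarate dehydrogenase and FUM1 (-1.32) for fumarase, and LSC1 (-0.86) was not called. The minor citrate synthase gene CIT3 had 68.4 to 86.4 TPM in the mutant and 38.2 to 52.8 TPM in wild type (0.78, not called).

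In the respiratory chain 2 of 7 succinate dehydrogenase genes, 1 of 9 cytochrome bc1 genes and 2 of 11 genes of cytochrome c and its oxidase were lower, against 28.6% of all genes. After scaling, 2 of the succinate dehydrogenase genes were higher, no bc1 gene was called, and 1 gene of the oxidase list was lower and 1 higher. Cytochrome c carries electrons from the bc1 complex to the oxidase, and its main gene CYC1 had 129, 81.6, 162 and 135 TPM in the mutant, against 849, 864, 788 and 739 TPM in wild type (log2 difference -2.7 ± 0.20 SE, adjusted p = 7.7e-07). COX5B, for the oxidase subunit isoform made at low oxygen, had 210.1, 234, 219 and 236 TPM in the mutant, against 103, 108, 80.6 and 84.3 TPM in wild type (log2 difference 1.26 ± 0.16 SE, adjusted p = 4.3e-05), and COX5A, for the aerobic isoform, 1686 to 1774 TPM in the mutant and 2380 to 3157 TPM in wild type (log2 difference -0.67 ± 0.15 SE, adjusted p = 0.0017), which missed the fold of 2. SDH1 (-1.11) and SDH2 (-1.04) were both at the edge of the call. Without the mutant's 16 h library neither was called (-0.96 and -0.94), and without the mutant's 14 h or the wild-type 20 h library SDH2 was not (-0.99 and -0.98). COX6 (-1.04) likewise lost its call without the mutant's 15 h (-0.99) or the wild-type 18 h library (-0.96), whereas the bc1 list gained a second lower gene without the mutant's 13 h or the wild-type 22 h library. Of 16 ATP synthase genes 8 were lower with a median of -1.03 (-0.34 after median-of-ratios scaling), led by ATP19 (-1.84), and ATP19 alone stayed lower after scaling. The 6 mitochondrially encoded transcripts were near 1 TPM in both strains and 0 were called.

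Cytosolic NADH can be reoxidised by making glycerol, and shuttles can pass its electrons to mitochondria, so genes of both were examined as lists. Of 8 glycerol genes 3 were lower and 0 higher (2 higher and 1 lower after scaling), against 28.6% of all genes lower in TPM. STL1, for a glycerol importer that glucose represses, had 10.7, 7.29, 5.06 and 5.84 TPM in the mutant, against 104, 127, 139.7 and 95 TPM in wild type (log2 difference -3.87 ± 0.22 SE, adjusted p = 5.5e-08). GPD1, for the osmotically induced glycerol phosphate dehydrogenase, had 191, 88.5, 95.7 and 83.7 TPM in the mutant, against 291, 349.8, 389 and 342 TPM in wild type (log2 difference -1.65 ± 0.24 SE, adjusted p = 9.6e-05), with the 13 h mutant library highest, and FPS1, for the glycerol export channel, 10.4 to 17.5 TPM in the mutant and 28 to 29.2 TPM in wild type (log2 difference -1.1 ± 0.19 SE, adjusted p = 0.00036). GPD1 and FPS1 were no longer called after scaling (-0.96 and -0.44) or with the mutant's window from 12 h. GPD2, for the isoenzyme linked to redox balance, had 123, 117, 122 and 104 TPM in the mutant and 91.4, 65, 70.5 and 53.1 TPM in wild type (0.75, not called in TPM, 1.43 and called after scaling). GPP1, for a glycerol phosphate phosphatase, was at 0.76 and was called without the mutant's 13 h library (1.10) and after scaling (1.43). The mitochondrial glycerol phosphate dehydrogenase gene GUT2 (-0.18), which feeds ubiquinone without an NADH dehydrogenase, was not called, at 193, 170.1, 131 and 108 TPM in the mutant and 181, 189.8, 185 and 122 TPM in wild type. GUT1 (-0.33) and GPP2 (-0.75) were not called either.

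Of 12 genes of the malate and aspartate shuttle 6 were lower and 0 higher, and 2 were lower after scaling, MDH2 (-2.85) and MDH1 (-1.07). MDH1, for mitochondrial malate dehydrogenase, had 584, 422, 369 and 403 TPM in the mutant, against 1531, 1451, 1564 and 1422 TPM in wild type (log2 difference -1.77 ± 0.17 SE, adjusted p = 6e-06). The citrate and oxoglutarate carrier gene YHM2 (-1.65), the aspartate aminotransferase gene AAT2 (-1.18), the oxodicarboxylate carrier gene ODC1 (-1.17) and the aspartate and glutamate carrier gene AGC1 (-1.16) were lower in TPM. MDH3 (0.20), for the peroxisomal enzyme, AAT1 (-0.31), OAC1 (-0.31), ODC2 (-0.54), DIC1 (-0.56) and CTP1 (-0.94) were not called, but CTP1 was without the mutant's 15 h (-1.07) or the wild-type 16 h library (-1.14). Among 7 genes of lactate use and fumarate reduction JEN1, for the lactate and pyruvate carrier, was lower at 969, 647, 499 and 387 TPM in the mutant and 3074, 3232, 2735 and 1818 TPM in wild type (log2 difference -2.17 ± 0.26 SE, adjusted p = 3.2e-05). OSM1 (-1.06), for a fumarate reductase, lost its call without the mutant's 14 h (-0.95) or the wild-type 22 h library (-1.0), and the lactate dehydrogenase genes CYB2 (0.27) and DLD1 (-0.40) were not called.

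Genes for cutting the septum between mother and daughter were higher in the mutant as a group. Of 14 tested genes of daughter cell separation 9 were higher and 0 lower, with a median of 2.00 (2.67 after median-of-ratios scaling), and 10 were higher after that scaling.

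CTS1 (YLR286C, chromosome XII, 708448 to 710136), for the chitinase that cuts the septum, had 962, 1652, 1645 and 1684 TPM in the mutant, against 263, 196, 159 and 147 TPM in wild type (log2 difference 2.95 ± 0.23 SE, adjusted p = 9.7e-07). DSE2 (YHR143W, chromosome VIII, 385510 to 386487), for a daughter-specific secreted protein, had 352, 635, 707 and 642 TPM in the mutant, against 132, 92.9, 79.4 and 76 TPM in wild type (log2 difference 2.59 ± 0.24 SE, adjusted p = 4.5e-06). DSE4 (YNR067C, chromosome XIV, 755746 to 759099), for a glucanase, had 101, 106, 109 and 103 TPM in the mutant, against 29.1, 22.1, 17.6 and 14.7 TPM in wild type (log2 difference 2.31 ± 0.20 SE, adjusted p = 2.8e-06). No mutant library overlapped wild type for any of the 9 higher genes, but these were called on the same libraries, so this adds no separate support. DSE1, also expressed in daughters, had 94.9, 117, 130.4 and 128 TPM in the mutant, against 29, 23.7, 21.9 and 23 TPM in wild type (log2 difference 2.22 ± 0.17 SE, adjusted p = 9.7e-07), and EGT2, needed for timely separation, 64.9, 93.3, 96 and 90.5 TPM in the mutant, against 22.3, 19.2, 17.4 and 14 TPM in wild type (log2 difference 2.18 ± 0.20 SE, adjusted p = 3.8e-06). SUN4, for a septum protein, had 85, 132, 166 and 142 TPM in the mutant, against 35.4, 27.1, 26 and 23 TPM in wild type (log2 difference 2.17 ± 0.22 SE, adjusted p = 7.7e-06), and SCW11, for a glucanase-like wall protein, 133, 194, 194 and 200.4 TPM in the mutant, against 63, 41.4, 37.6 and 30.9 TPM in wild type (log2 difference 2.06 ± 0.22 SE, adjusted p = 1.3e-05). DSE3 (1.94) and AMN1 (1.66), for a daughter-specific antagonist of mitotic exit, were higher as well. SWI5, for an activator of genes made late in mitosis, was near the floor at 0.453 to 1.51 TPM in the mutant and 1.25 to 2.58 TPM in wild type. ASH1, for the daughter-specific repressor of HO, was at 0.93, called without the mutant's 13 h (1.01) or the wild-type 16 h library (1.03), and BUD9 (-0.42) and PRY3 (0.20) were not called. In wild type CTS1 and DSE2 were already falling before the HXT3 drop, while HXT3 was still at 1639 TPM at 14 h. CTS1 had 976, 1084, 1662 and 1585 TPM in the mutant and 1022, 884, 543 and 457 TPM in wild type over the 4 time points before the loss, and DSE2 584, 638, 1053 and 1117 TPM in the mutant and 659, 559.7, 338 and 259.5 TPM in wild type. For both genes every wild-type library after the loss was below every wild-type library before it. The mutant's libraries before and after the loss overlapped for both, as they did for DSE1 and DSE4. Other separation genes fell in the mutant too. SUN4 ranged there over 226 to 293 TPM before the loss and 85 to 166 TPM after it. SCW11 (208 to 351 and 133 to 200.4 TPM) and EGT2 (96.2 to 144 and 64.9 to 96 TPM) also fell in the mutant without overlap. EGT2, SUN4 and SWI5 were already called higher in the mutant before the loss, EGT2 at 1.05 and SUN4 at 1.3. From 18 to 58 h CTS1 ranged over 2022 to 4668 TPM in the mutant, 1859 to 5679 TPM in cox4∆ and 129 to 373 TPM in wild type.

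**Figure D3:**
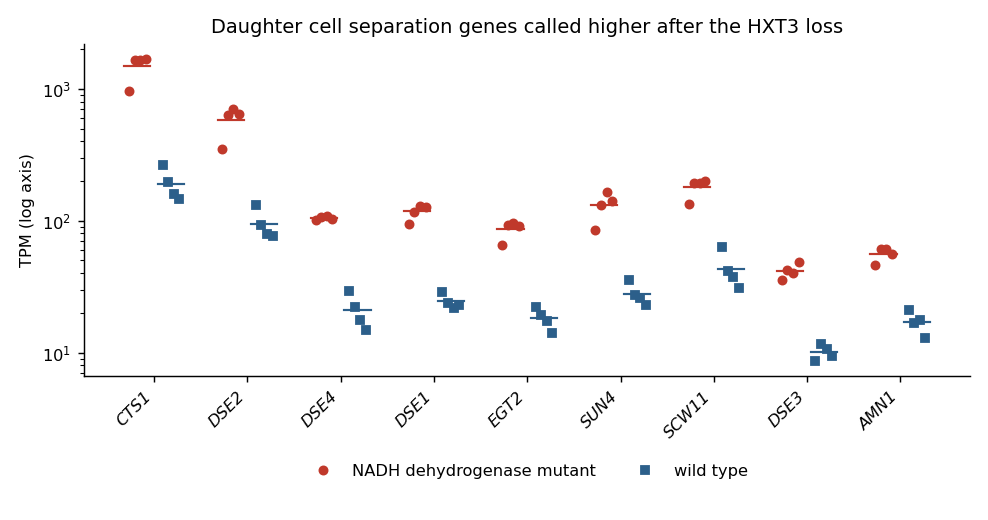
TPM (log axis) of the 9 genes of daughter cell separation called higher, in each of the 4 libraries after the HXT3 loss, in order of hour, with the mutant left and wild type right of each tick and a line at the mean. CTS1 stands at 962 to 1684 TPM in the mutant, above the 147 to 263 TPM of wild type.

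In TPM the cell cycle list went the other way. Of 25 cell cycle genes 12 were lower and 1 higher, but after scaling 0 were lower and 2 higher. Over all genes 28.6% were lower in TPM and 5.65% after scaling. The 12 averaged 0.589 to 7.77 TPM in the mutant and 3 to 19.8 TPM in wild type, and 0 were lower with a pseudocount of 5 and 3 with the mutant's window from 12 h. Genes of the Mcm helicase that loads at replication origins were at 1.54 to 3.1 TPM in the mutant and 7.1 to 9.53 TPM in wild type for MCM7 (-1.55), and MCM2 to MCM6 were all called lower. SIC1, for the inhibitor of S-phase cyclin kinase that is made as cells leave mitosis, had 113, 94.3, 87.1 and 107 TPM in the mutant, against 40.8, 46.4, 49.8 and 45.1 TPM in wild type (log2 difference 1.12 ± 0.16 SE, adjusted p = 8.6e-05), and PCL9, a cyclin gene of the same phase, 22.3 to 36.4 TPM in the mutant and 13.1 to 18.2 TPM in wild type (log2 difference 0.83 ± 0.20 SE, adjusted p = 0.0032), short of the fold of 2 before scaling. The histone genes HHF1 (-1.23) and HTB1 (-1.05) were lower among 10, HTB1 not without the mutant's 14 h (-0.96) or the wild-type 22 h library (-0.93), and 0 were called after scaling.

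Of 19 cell wall genes 4 were higher and 4 lower (8 higher and 1 lower after scaling). TIP1 (YBR067C, chromosome II, 372103 to 372735), for a cold-induced mannoprotein, had 1086, 913, 812 and 619 TPM in the mutant, against 233, 77.4, 70.5 and 59.1 TPM in wild type (log2 difference 3.16 ± 0.36 SE, adjusted p = 3.4e-05). HPF1, for a heavily glycosylated wall protein, had 362, 505, 425 and 343 TPM in the mutant, against 85.5, 74.9, 80.3 and 51.3 TPM in wild type (log2 difference 2.48 ± 0.20 SE, adjusted p = 1.3e-06), and the wall proteins of PIR1 (1.68) and CIS3 (1.46), members of the PIR family, were higher too. Their relative PIR3 was lower, at 1115, 1061, 1023 and 951 TPM in the mutant and 4867, 3387, 3609 and 3099 TPM in wild type (log2 difference -1.83 ± 0.17 SE, adjusted p = 4.5e-06), so members of 1 family differed in direction under both scalings. FKS1 (-1.07), for the glucan synthase, GAS1 (-1.03) and CRH1 (-1.02) were lower in TPM and not after scaling. Without the mutant's 13 h library 1 wall gene was lower in place of 4.

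Invertase and the carriers HXT1 and HXT2 were higher in the mutant, while 3 other genes of the list were lower. Of 14 genes of hexose transport and sensing 3 were higher and 3 lower (5 higher and 0 lower after scaling). SUC2 (YIL162W, chromosome IX, 37385 to 38983) had 1412, 1212, 1024 and 865 TPM in the mutant, against 176, 78.2, 70 and 58.1 TPM in wild type (log2 difference 3.67 ± 0.29 SE, adjusted p = 1.3e-06), and it stayed at 433 to 1082 TPM in the mutant from 18 to 58 h, against 51.5 to 91.4 TPM in wild type. SUC2 is repressed by high glucose and needs a low amount of it for full expression. HXT2, for a high-affinity carrier, had 19.1, 27.1, 28.9 and 25.6 TPM in the mutant, against 7.6, 6.33, 5.8 and 7.8 TPM in wild type (log2 difference 1.72 ± 0.20 SE, adjusted p = 2e-05), and HXT1, for the low-affinity carrier of high glucose, 21.5, 37.5, 55.4 and 53.9 TPM in the mutant, against 18.8, 17.4, 15.7 and 14.6 TPM in wild type (log2 difference 1.2 ± 0.26 SE, adjusted p = 0.0016). HXT6 and HXT7 encode near-identical high-affinity carriers, so the division of reads between them is uncertain. HXT6 had 34406, 26197, 14728 and 9135 TPM in the mutant and 23706, 8775, 5841 and 3527 TPM in wild type (log2 difference 1.21 ± 0.59 SE, adjusted p = 0.1), and HXT7 4263, 2649, 1679 and 1335 TPM in the mutant and 4516, 537, 486 and 368 TPM in wild type (log2 difference 1.46 ± 0.74 SE, adjusted p = 0.11). Neither was called, and wild type was highest in both at 16 h. Without that library the log2 differences were 1.72 and 2.29 and both were called, which made 5 genes higher. With position in the window as covariate both were called as well, at unchanged log2 differences (limma adjusted p = 1.7e-05 for HXT6 and 0.032 for HXT7), again with 5 higher. HXT1 lost its call with a spread pooled over 5 windows (limma adjusted p = 0.087). The call was lost too with the first 3 time points (1.0, just short of the fold of 2) and with the mutant's window from 12 h (0.7). HXT5, a carrier gene of slow-growing cells, was lower (-1.17), but lost the call without the mutant's 15 h (-1.0) or 16 h (-0.81) or the wild-type 18 h (-1.13) or 20 h library (-1.07). The glucose sensor gene RGT2 (-1.2) and HXT8 (-1.2) were lower at low TPM. HXT4 was at -0.98, called without the wild-type 18 h (-1.26) or 20 h library (-1.16), and SNF3 (-0.29), MTH1 (-0.42), STD1 (-0.08), GAL2 (0.32) and HXT13 (0.52) were not called.

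Glycolytic genes were mostly uncalled. Of 21, 1 was higher and 4 lower (4 higher and 0 lower after scaling). HXK1, for the hexokinase isoenzyme made when glucose is scarce, had 2853, 1536, 1526 and 1456 TPM in the mutant, against 1671, 659, 671 and 565 TPM in wild type (log2 difference 1.13 ± 0.32 SE, adjusted p = 0.0071), not called without the wild-type 22 h library (a second gene was higher without the mutant's 14 or 16 h or the wild-type 16 h library), while PFK1 (-1.32), PFK2 (-1.24) and PGI1 (-1.24) were lower in TPM only. In the pentose phosphate pathway RKI1 (YOR095C, chromosome XV, 503552 to 504328), for ribose phosphate isomerase, had 3.87, 4.88, 7.34 and 5.98 TPM in the mutant, against 48.1, 95.3, 70.2 and 91.1 TPM in wild type (log2 difference -3.55 ± 0.25 SE, adjusted p = 3.3e-07). The other 10 genes of that pathway held 1 more called lower, TKL1 (-1.05), a call lost without the mutant's 13 h (-0.88), the wild-type 16 h (-0.95) or the wild-type 20 h library (-1.0), and ZWF1 (0.62), for the first, NADPH-forming enzyme, was higher after scaling only.

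Stress genes showed little difference in TPM and a broad gain after scaling. Of 29 genes induced by Msn2 and Msn4, the general stress factors, 4 were higher and 2 lower, with a median of 0.13 (0.82 after median-of-ratios scaling), and 10 were higher and 2 lower after scaling. SPI1, for a wall protein of stationary cells, had 22910, 29658, 36757 and 32019.8 TPM in the mutant, against 7527, 7463, 7072 and 6579 TPM in wild type (log2 difference 2.06 ± 0.17 SE, adjusted p = 1.5e-06). TMA10 (1.03), ALD3 and HXK1 were the other 3, and YRO2 (-1.85) and PIR3 were lower. Without the mutant's 13 h library 4 were lower in place of 2. Many of these transcripts were abundant in both strains, such as DDR2 at 34273 to 47000.1 TPM in the mutant and 26147 to 37042 TPM in wild type, and HSP26 at 16732 to 21006 TPM in the mutant and 14218 to 17355 TPM in wild type. Of 22 chaperone genes under the heat shock factor Hsf1, 3 were higher and 1 lower (11 higher and 0 lower after scaling), with BTN2 (1.47), CPR6 (1.22) and FES1 (1.19) higher and SSA1 (-1.09) lower. Without the mutant's 13 h library a second was lower.

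The copper metallothionein gene CUP1-1 (YHR053C, chromosome VIII, 212535 to 212720) had 43907, 71134, 70106 and 101876 TPM in the mutant, against 10939, 13366, 10589 and 12434 TPM in wild type (log2 difference 2.54 ± 0.22 SE, adjusted p = 2.7e-06). CUP1-1 has a near-identical tandem copy in the reference genome, which is not used here, so its level may stand for both. TSA2, the stress-induced peroxiredoxin gene, had 756, 722, 669 and 688 TPM in the mutant, against 163, 131, 94 and 87.2 TPM in wild type (log2 difference 2.61 ± 0.20 SE, adjusted p = 9.7e-07), and was the 1 of 20 antioxidant genes called before scaling (6 higher after). The major peroxiredoxin gene TSA1 (-0.43) and the superoxide dismutase genes SOD1 (0.12) and SOD2 (-0.58) were not called. Of 12 genes of stationary phase, 2 were higher and 3 lower (5 higher and 2 lower after scaling). SPG1 had 4495, 5116, 5870.2 and 7709.6 TPM in the mutant, against 879, 1538, 1251 and 1229.7 TPM in wild type (log2 difference 2.24 ± 0.21 SE, adjusted p = 4.6e-06), and SPG4 3644, 4629.7, 3711 and 5706 TPM in the mutant, against 879.9, 2001, 1470.5 and 1515 TPM in wild type (log2 difference 1.63 ± 0.24 SE, adjusted p = 1e-04), both named for a need in stationary phase. SPS100, a sporulation wall gene, had 299, 168, 105 and 87.4 TPM in the mutant, against 918, 735, 1121 and 1140.4 TPM in wild type (log2 difference -2.71 ± 0.32 SE, adjusted p = 2.6e-05), and the vitamin B6 genes SNO1 (-1.67) and SNZ1 (-1.24) were lower. Of 18 trehalose and glycogen genes GSY1 (1.23), for glycogen synthase, was higher and ATH1 (-1.04), for acid trehalase, lower, with 6 higher and 0 lower after scaling. ATH1 lost its call without the mutant's 15 h (-0.94) or 16 h (-0.81) or the wild-type 20 h library (-0.95). Of the list, 3 were lower without the mutant's 13 h library, and without the wild-type 16 h library 2 were higher.

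Of 16 genes of fatty acid oxidation and carnitine, 2 were higher and 2 lower (4 higher and 1 lower after scaling). YAT1, for a carnitine acetyltransferase that moves acetyl units into mitochondria, had 155, 213, 191 and 160 TPM in the mutant, against 409, 742, 830 and 549 TPM in wild type (log2 difference -1.77 ± 0.22 SE, adjusted p = 3.5e-05), and YAT2 (-1.16) lost its call without the mutant's 16 h library (-0.96). POT1, for the peroxisomal thiolase, had 356, 225, 192 and 164 TPM in the mutant and 112, 116, 100.4 and 65.7 TPM in wild type (log2 difference 1.21 ± 0.25 SE, adjusted p = 0.00099), a call lost without the mutant's 13 h library (0.99), and the acyl-CoA synthetase gene FAA1 (1.26) was higher.

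Genes of cytosolic ribosomal proteins, ribosome biogenesis and amino acid synthesis were lower in TPM by more than the shift of all genes. After scaling 5.65% of all genes were lower, a share that ribosome biogenesis exceeded and the ribosomal protein and amino acid lists did not. Their scaled medians all stayed below the -0.04 of all genes. Of 137 genes of cytosolic ribosomal proteins 95 were lower and 0 higher, with a median of -1.14 (-0.45 after median-of-ratios scaling), and 3 were lower after scaling. Without the mutant's 13 h library 51 were lower, 53 with the mutant's window from 12 h, and 30 at equal clock hours. Their summed level was 19608 to 39863 TPM in the mutant and 55138 to 77520.3 TPM in wild type, so the sums did not overlap. Many are near-identical pairs whose reads may have been split. Of 57 ribosome biogenesis genes 37 were lower (10 after scaling), with a median of -1.17 (-0.59 after median-of-ratios scaling), led by RRS1 (-2.05) and NOP7 (-1.91), both needed for the large subunit. Of 39 genes of amino acid synthesis 16 were lower (0 lower and 1 higher after scaling), while the 32 proteasome genes had 0 called, and 1 higher after scaling. HOM3 (-1.66), for aspartate kinase, and ARG1 (-1.54), for argininosuccinate synthetase, were among those lower. The activator gene GCN4 was at -0.97, short of the fold of 2. Of 66 mitochondrial ribosomal protein genes 12 were lower, below the background of 28.6%, and 1 was lower and 2 higher after scaling.

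The iron uptake genes FTR1 and FET3 were lower in the mutant under both scalings, while the iron regulon as a whole split both ways after scaling. Of 24 genes of the iron regulon 13 were lower and 1 higher (5 lower and 4 higher after scaling). FTR1 (YER145C, chromosome V, 460526 to 461740), for the iron permease, had 37.6, 26.7, 37.4 and 38.9 TPM in the mutant, against 453, 339.8, 684 and 701 TPM in wild type (log2 difference -3.87 ± 0.23 SE, adjusted p = 7.8e-08), and FET3, for its multicopper oxidase partner, 202, 155, 140.3 and 126 TPM in the mutant, against 727, 652, 803 and 721 TPM in wild type (log2 difference -2.23 ± 0.18 SE, adjusted p = 1.2e-06). ARN1 (-3.07) and SIT1 (-2.17), for siderophore carriers, and CCC2 (-2.34), for the copper pump that loads Fet3, were the other 3 lower after scaling. FIT3, for a wall mannoprotein that retains siderophores, was higher at 14698, 24914, 26466 and 24761 TPM in the mutant and 9327, 9595, 8922 and 9422 TPM in wild type (log2 difference 1.25 ± 0.19 SE, adjusted p = 0.00013). CTH1 (1.27), for an mRNA-binding protein of iron starvation, FIT2 (1.14), for another wall mannoprotein, and FRE5 (1.11), for a putative ferric reductase, were the other 3 higher after scaling, and in TPM they stood at 0.59, 0.44 and 0.43 and were not called. With the mutant's window from 12 h 0 were higher in TPM. FTR1 and FIT3 are both activated by Aft1, and their directions were opposite in every library compared.

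Part of the sterol pathway was lower. Of 25 ergosterol genes 10 were lower and 0 higher (3 lower and 1 higher after scaling). Over all genes 28.6% were lower in TPM and 5.65% after scaling, shares that hold for the hypoxic counts below too. ERG3, for sterol desaturase, had 136, 115, 148 and 132 TPM in the mutant, against 1288, 1254, 1643 and 1726 TPM in wild type (log2 difference -3.46 ± 0.17 SE, adjusted p = 9.3e-09), and ERG5 (-2.75) and ERG25 (-2.44), for other oxygen-using steps, were lower under both scalings. OLE1, for the fatty acid desaturase, was at 801, 679, 569 and 525 TPM in the mutant and 2524, 2169.5, 2359 and 2880.5 TPM in wild type (log2 difference -1.96 ± 0.17 SE, adjusted p = 3.7e-06). Among 10 hypoxic genes 4 were lower and 1 higher (2 and 2 after scaling). The repressor gene ROX1 (-2.22) was lower, but HEM13 (-1.4), which it represses, was lower too, and COX5B higher. AAC3 and TIR1, typical of cells without oxygen, were low, AAC3 at 0.464 to 0.923 TPM in the mutant and 0.1 to 0.604 TPM in wild type, and TIR1 at 0.1 to 1.25 TPM in the mutant and 0.437 to 3.22 TPM in wild type.

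Nutrient carriers varied gene by gene. AGP1, for a broad amino acid permease, had 10.5, 7.86, 11 and 7.98 TPM in the mutant, against 93, 162, 162 and 171 TPM in wild type (log2 difference -3.81 ± 0.22 SE, adjusted p = 5.2e-08), BAP3 (-2.68) and the proline permease gene PUT4 (-2.38) were lower, and BAP2 (1.14), for a branched-chain amino acid permease, was higher. In all 4 of 22 nitrogen genes were lower and 1 higher (3 lower and 4 higher after scaling), and BAP2 lost its call without the wild-type 22 h library (0.93). PHO89, for the sodium-dependent phosphate carrier, had 61.8, 154, 111 and 96.6 TPM in the mutant, against 9.88, 19.6, 14.2 and 10.6 TPM in wild type (log2 difference 2.85 ± 0.27 SE, adjusted p = 6e-06), whereas PHO84 (-0.91), for the main carrier, was not called. Of 18 phosphate genes 2 were higher and 4 lower (2 higher and 1 lower after scaling). PHM6 lost its call without the mutant's 13 h library and without the wild-type 18, 20 or 22 h library, at -1.68 to -1.80. Of 8 genes of the zinc regulon 4 were lower (1 lower and 1 higher after scaling), led by IZH1 (-1.89), and IZH2 (-1.08) lost its call without the wild-type 22 h library (-0.98). Of 20 autophagy genes 5 were lower (3 higher and 0 lower after scaling), 3 without the mutant's 16 h library, and of 15 mating and sporulation genes 5 were lower (2 lower and 1 higher after scaling), led by AGA1 (-1.83). The nitrogen, phosphate, zinc, autophagy and mating counts stand beside 28.6% of all genes lower in TPM. The 8 selectable marker genes had 0 called, and 1 lower without the mutant's 16 h library. The 6 retrograde regulators had 0 called, but 4 lower without the mutant's 13 h library and 3 without the wild-type 16 h library.

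**Figure D4:**
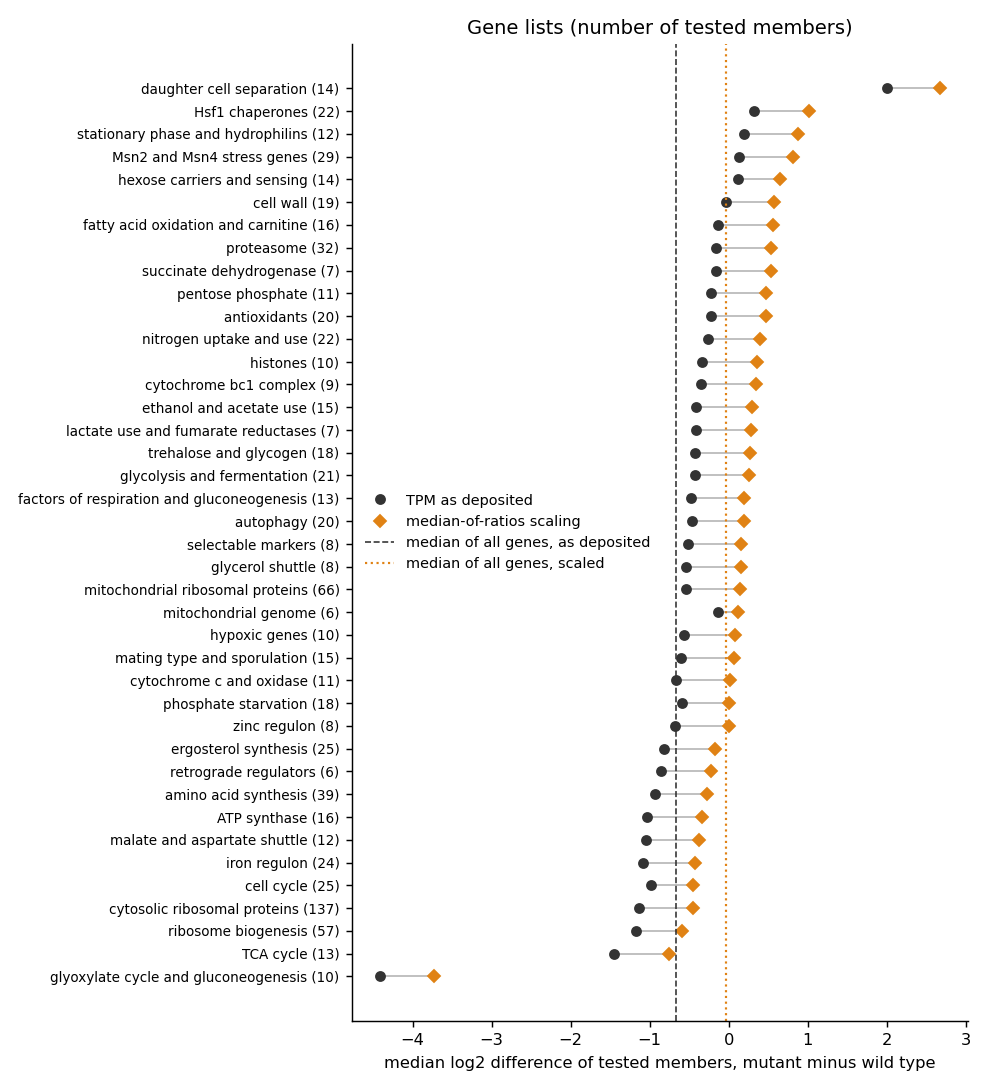
Median log2 difference of each gene list but the deleted genes, mutant minus wild type after the HXT3 loss, in TPM and after median-of-ratios scaling, with the median of all genes (-0.67 in TPM and -0.04 after scaling) as lines. Glyoxylate cycle genes lie lowest at -4.41 and daughter separation genes highest at 2.00 in TPM.

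Few of these differences were called before the loss. Over the last 4 time points before it (8 to 11 h in the mutant, 11 to 14 h in wild type) 106 genes (1.85%) were higher and 173 (3.02%) lower in the mutant, and the median of all genes was 0.03. Without the mutant's 11 h library, the last before the loss, 190 were higher and 265 lower. Of the 97 genes higher after the loss 11 (11.3%) were already higher before it, 12 (12.4%) were then lower and 74 were not called. Of the 1639 lower after it 48 (2.93%) were lower and 10 higher before. AGP1 was a gene lower at both times, with 14.3, 14.9, 17.1 and 15.8 TPM in the mutant and 160.2, 199, 139 and 124 TPM in wild type before the loss (log2 difference -3.22). ICL1 had 15.3, 15, 18.8 and 19.7 TPM in the mutant and 25.3, 34.1, 28.7 and 51.1 TPM in wild type before the loss. Its difference of -0.93 was not called, though every mutant library was below every wild-type library. PCK1 (-0.86) and FBP1 (-0.81) missed only the fold of 2 before the loss (limma adjusted p = 0.047 and 0.043). ADH2 (-0.24) and SIP4 (0.12) missed both thresholds. Of the 10 glyoxylate and gluconeogenesis genes, however, 3 were called lower and 2 higher before the loss. The lower ones were MLS1 (-2.55), IDP2 (-1.97) and SFC1 (-1.93). LSO1 (-2.34) and ECM13 (-1.88), also among the leading lower genes, were called lower before it as well. Of the 29 Msn2 and Msn4 genes 14 were lower in the mutant before the loss and 0 higher, and of the 12 stationary phase genes 8 were lower. SIP18, for a hydrophilin, had 52.3, 147, 339.5 and 449.9 TPM in the mutant and 3199, 2209, 4239 and 3081 TPM in wild type at those hours.

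The change across the loss was then compared between the strains by an interaction contrast over 16 libraries. The mutant's change minus that of wild type was positive for 228 genes (3.99%) and negative for 1968 (34.4%), with a median of -0.71. After scaling it was positive for 696 (12.2%) and negative for 507 (8.86%). The most positive were SPG1 (5.14), GRE1 (4.26), SIP18 (4.25), SPG4 (4.08), POT1 (4.05), SUC2 (4.05), SSA3 (3.94) and SPI1 (3.56), as log2 differences in change. SIP18 reached 10140.1, 12047, 10187 and 18454 TPM in the mutant and 6914, 12645, 12220.1 and 12517 TPM in wild type after the loss (log2 difference 0.20, not called), so its positive value came with a lower start in the mutant. SUC2 was not called before the loss, at 37.1, 33.4, 75.7 and 271 TPM in the mutant and 57.9, 63.4, 76.6 and 269 TPM in wild type. On the other side were ICL1 (-4.91), FBP1 (-4.58), PCK1 (-4.55), ADH2 (-4.39), SIP4 (-4.37), RKI1 (-4.18), SFC1 (-4.17) and FTR1 (-3.27). FBP1 was at 11.3 to 17.9 TPM before and 27 to 30.2 TPM after the loss in the mutant, and at 14.1 to 39.7 TPM before and 869 to 1856 TPM after it in wild type. All 16 kept their call under other pseudocounts, filters and scaling, with a pooled spread and with each library left out. Other windows were not tried for the change. By list, the difference was negative for 9 of 10 glyoxylate and gluconeogenesis genes (7 after scaling). It was positive for 7 and negative for 1 of 14 separation genes (10 and 1 after scaling), and positive for 15 and negative for 1 of 29 Msn2 and Msn4 genes (22 and 0 after scaling). Ribosomal protein genes had a negative value in 134 of 137 cases, and in 27 after scaling.

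**Figure D5:**
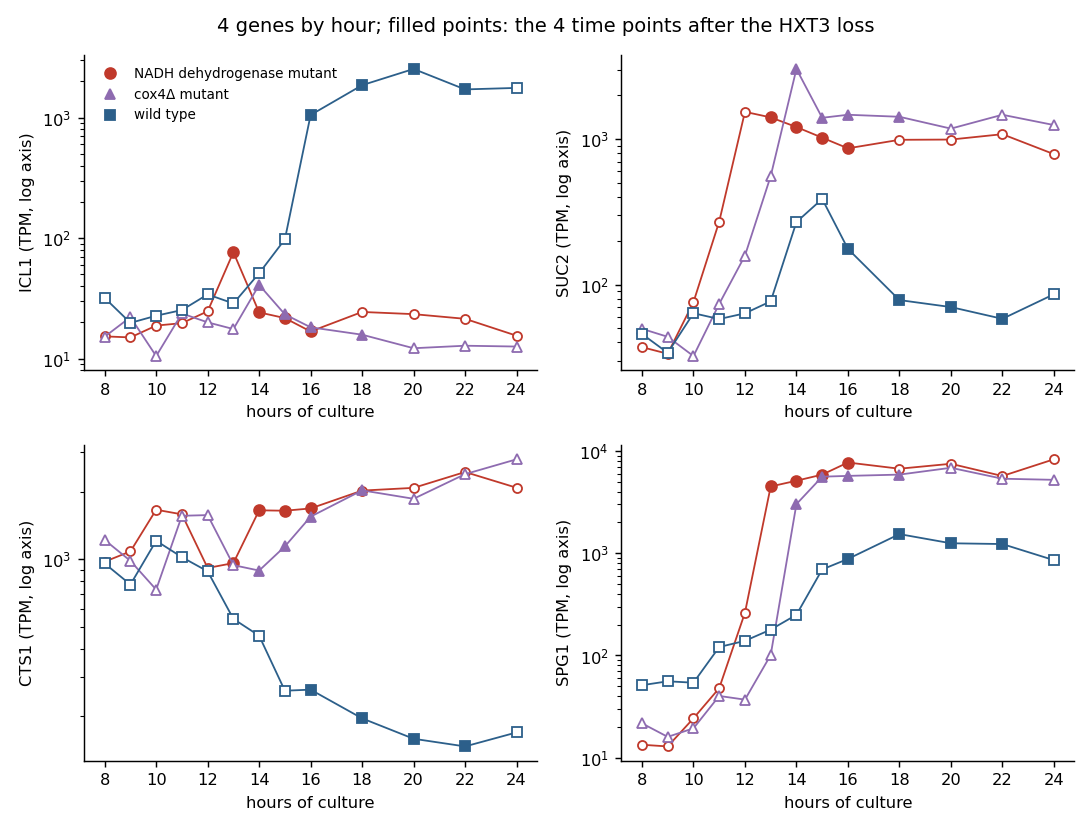
TPM (log axes) against hours of culture from 8 to 24 h for ICL1, SUC2, CTS1 and SPG1 in the mutant, cox4∆ and wild type, 1 point per library, filled in the 4 libraries after the HXT3 loss. ICL1 stays low in both mutants while wild type reaches 1051 TPM at 16 h. CTS1 dips to 915 TPM at 12 h in the mutant and 891 TPM at 14 h in cox4∆. It then rises in both, to 2446 TPM at 22 h in the mutant, while wild type falls to 147 TPM at 22 h.

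Few genes were called between the NADH dehydrogenase mutant and cox4∆, the other respiratory mutant, at the same phase. The NADH dehydrogenase mutant was above cox4∆ for 2 genes (0.035%) and below it for 9 (0.157%), with a median over 5721 genes of 0.07. At an unadjusted p under 0.05 there were 484, against 3860 for the comparison with wild type. The spread within the cox4∆ window enters this test, so the low count does not show that the strains were equal. COX4 (8.51) was 1 of the 2 higher, and NDE1 (-6.44), NDE2 (-6.74) and NDI1 (-6.82) were among the 9 lower, as deleted genes. ADY2 was the other gene higher, with 48, 37.3, 35.5 and 36.8 TPM in the mutant and 14.7, 15.1, 18.5 and 19.6 TPM in cox4∆ (log2 difference 1.17 ± 0.17 SE, adjusted p = 0.017). HXT13 (YEL069C, chromosome V, 21537 to 23231), for a carrier of the hexose family, had 5.76, 1.53, 1.24 and 0.403 TPM in the mutant and 523, 93.6, 71.3 and 53.6 TPM in cox4∆ (log2 difference -5.45 ± 0.66 SE, adjusted p = 0.0032). DSF1 (YEL070W, chromosome V, 19589 to 21097), a gene of the mannitol dehydrogenase family next to HXT13, had 75.1, 36.1, 38.5 and 33.4 TPM in the mutant and 2021, 375, 380.1 and 353 TPM in cox4∆ (log2 difference -3.68 ± 0.50 SE, adjusted p = 0.0098). HXT17 had 2.28, 0.882, 1.55 and 1.13 TPM in the mutant and 29.7, 9.02, 7.27 and 8.16 TPM in cox4∆ (log2 difference -2.36 ± 0.38 SE, adjusted p = 0.032). HXT13 and HXT17 have near-identical relatives, so their values are uncertain. Wild type was low for HXT13 (1.52, 0.486, 1.84 and 0.212 TPM) and DSF1 (32.2, 19.1, 15.9 and 12.7 TPM). DSF1 was nonetheless called higher in the mutant than in wild type (log2 difference 1.16 ± 0.3 SE, limma adjusted p = 0.0042), and HXT13 (0.52) was not. In cox4∆ the 14 h library was highest for HXT13, DSF1 and HXT17. DLD1, for a mitochondrial lactate dehydrogenase that feeds cytochrome c, had 129.8, 100.2, 104 and 85.7 TPM in the mutant and 225, 279, 247 and 214 TPM in cox4∆ (log2 difference -1.2 ± 0.17 SE, adjusted p = 0.011). With the 14, 15 or 16 h library of the mutant left out, ADY2 (1.19 to 1.22), DSF1 (-3.55 to -3.62), HXT17 (-2.24 to -2.39) and DLD1 (-1.11 to -1.2) each lost the call. So did ADY2 (1.12), HXT17 (-2.46) and DLD1 (-1.13) without the 15 h library of cox4∆, and ADY2 (1.21) and DLD1 (-1.19) without its 16 h library.

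Leading genes of the comparison with wild type were not called between the mutants. ICL1 had 76.4, 24.2, 21.7 and 16.8 TPM in the mutant and 40.9, 23.3, 18.2 and 15.8 TPM in cox4∆ (log2 difference 0.32 ± 0.43 SE, adjusted p = 0.91). CTS1 had 962, 1652, 1645 and 1684 TPM in the mutant and 891, 1141, 1548 and 2027 TPM in cox4∆ (0.12, adjusted p = 0.96), and SUC2 1412, 1212, 1024 and 865 TPM in the mutant and 3041, 1403, 1472 and 1426 TPM in cox4∆ (-0.64, adjusted p = 0.52). CUP1-1 had 43907, 71134, 70106 and 101876 TPM in the mutant and 36173, 116621, 115589 and 122484 TPM in cox4∆ (-0.36, adjusted p = 0.88). FTR1 had 37.6, 26.7, 37.4 and 38.9 TPM in the mutant and 48.9, 25.7, 30 and 34.4 TPM in cox4∆ (0.04, adjusted p = 0.99), and RKI1 3.87, 4.88, 7.34 and 5.98 TPM in the mutant and 4.56, 6.62, 2.07 and 5.6 TPM in cox4∆ (0.24, adjusted p = 0.9). No gene of the glyoxylate or separation lists was called between the mutants.

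Over all 5721 genes, alignment by HXT3 placed the mutant libraries beside wild-type libraries of a later clock hour, given here as a description over genes of the same libraries. Among all 24 wild-type libraries the 13 h mutant library had its highest Spearman correlation with 16 h (0.932), the 14 h library with 18 h (0.927), the 15 h library with 16 h (0.937) and the 16 h library with 18 h (0.931). With the wild-type library of the same clock hour the values were 0.879, 0.888, 0.929 and 0.919 in the same order of hours. Pearson correlation of log2(TPM + 1) chose the same wild-type hours. At equal clock hours of 16 to 22 h, 126 genes were higher and 1579 lower in the mutant, in place of 97 and 1639 in the aligned windows.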

How the data were processed

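Libraries of total RNA after ribosomal RNA removal were sequenced from 3 strains at 24 times each. The deposited values are TPM for 5803 genes per library, made by the authors with Salmon 0.9.1 after bcl2fastq 2.20.0.422 on sacCer3, per the submitters' processing notes. Which annotation Salmon used, and whether it used strand, is not given in the sources used here. TPM keeps no read counts, so the depth of each library is unknown and no counting interval can be given; library sums exceed the nominal total by 4.16 to 12.8 TPM in the windows used after the loss. Of the 5803 genes, 5779 matched the RefSeq R64 annotation by name and 13 by an older name, and 5721 with a mean of at least 1 TPM over 72 libraries were tested, which left out 82.

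Groups came from the strain and hour in the labels. Differences were fitted with limma 3.58.1 (trend and robust options) in R 4.3.3 on log2(TPM + 1), so fold changes of low genes are understated, with Benjamini-Hochberg adjustment over all tested genes and calls at an adjusted p under 0.05 and a fold of at least 2. Fits had 6 residual degrees of freedom for the comparisons after the loss and 12 for those that also used the windows before it. The fits were tested on simulated data. HXT3, the windows, the gene lists and the tests were chosen with earlier results of these data known, so their counts are descriptions. The text names the 15 highest and 15 lowest called genes without overlap between windows and a mean of at least 10 TPM in the higher one, the 8 and 8 of the change, up to 5 and 5 of the comparison with cox4∆, the leading 4 called genes of a list and all genes of 7 lists; others, such as DDR2, GCN4, HSP26, AAC3 and SOD genes, were chosen after their values were seen. Settings tried were other pseudocounts, filters, scaling, a pooled spread and each library left out. Other windows, position in the window as covariate and rescaling without CUP1-1 were tried only for the comparison with wild type after the loss. Promoters were read from the R64 genome. One gene of the separation list is not reported here.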

Additional observations from a re-analysis of the deposited data

Results flagged for a closer look

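Within windows of 4 libraries, 198 gene and window pairs over 99 named genes were examined for a library standing apart from the other 3 by Dixon's ratio at its 95% critical value, and 23 did, where chance gives about 1 in 20 (5%). In the mutant 14 pairs stood apart, 11 of them with the 13 h library highest and 2 with it lowest.

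At 13 h the mutant was highest in ICL1 (76.4 TPM), MLS1 (73.6 TPM), MDH2 (148 TPM), IDP2 (103 TPM), SIP4 (5.99 TPM), ECM13 (28.8 TPM), HAP4 (193 TPM), GPD1 (191 TPM), ADY2 (48 TPM), ALD3 (1111 TPM) and LSO1 (1.52 TPM). The 13 h library was lowest for CTS1 (962 TPM) and SCW11 (133 TPM), and the 14 h library was lowest for FTR1 (26.7 TPM). The 13 h mutant library is also the nearest to the HXT3 drop, and the only library of its window whose label opens with C. What part either had was not tested, and they cannot be told apart here.

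In wild type 9 pairs stood apart. The highest values were those of HXT7 (4516 TPM), SUC2 (176 TPM), TIP1 (233 TPM), ADH4 (30.3 TPM) and MDH3 (244 TPM), 4 of them at 16 h and 1 at 18 h. The lowest were those of ACH1 (1029 TPM), AGP1 (93 TPM), GUT2 (122 TPM) and HAP4 (236 TPM), 1 at 16 h and 3 at 22 h.

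The change across the HXT3 loss differed between the mutant and wild type for the 16 genes named by rule, as log2 differences in change with limma. The mutant's change minus that of wild type was positive for SPG1 (5.14), GRE1 (4.26), SIP18 (4.25), SPG4 (4.08), POT1 (4.05), SUC2 (4.05), SSA3 (3.94) and SPI1 (3.56). It was negative for ICL1 (-4.91), FBP1 (-4.58), PCK1 (-4.55), ADH2 (-4.39), SIP4 (-4.37), RKI1 (-4.18), SFC1 (-4.17) and FTR1 (-3.27).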

How the results depend on the processing

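The scaling of the libraries moved the comparison with wild type after the loss and the change across it most. After median-of-ratios scaling 411 genes were higher and 323 lower in the mutant after the loss, in place of 97 and 1639, and the median was -0.04 in place of -0.67. The change across the loss then had 696 genes higher and 507 lower, in place of 228 and 1968. A pseudocount of 5 left 883 genes lower after the loss with a median of -0.48, and 1188 lower in the change. With the mutant's window from 12 to 15 h, 909 genes were lower and the median was -0.50. Rescaling without CUP1-1, an alternative chosen after seeing the data, gave 119 genes higher and 1409 lower. Leaving out each library in turn gave 72 to 190 genes higher and 116 to 265 lower before the loss, the highest counts without the mutant's 11 h library, and 1 to 6 genes higher against cox4∆. The cause was not tested. Over the values of single genes after the loss, 3685 stayed as they were, called or not called, 193 lost their call and 35 gained one. No value called in either fit changed sign, and signs of values called in neither were not compared. The losses were 55 under scaling, 36 with the mutant's window from 12 h, 32 with a library left out and 19 with a pseudocount of 5. A further 17 came with the wild-type window from 15 h and 11 at equal clock hours. Another 7 each came with the first 3 time points, with similar hours since the first library and without CUP1-1. The last were 1 each with a pseudocount of 0.1 and a pooled spread. For the 16 genes of the change 352 values kept their call, and against cox4∆ 65 kept and 18 lost it. No paired analysis was possible because the libraries carry no replicate numbers, only strains and hours; the time points could be matched by their position in the window, and with position as covariate 100 genes were higher and 1637 lower. Among lists with 5 or more lower genes, a pseudocount of 5 left 13 of 37 lower for ribosome biogenesis, 10 of 16 for amino acid synthesis and 1 of 5 each for autophagy and for mating and sporulation. The mutant's window from 12 h left 3 of 10 for ergosterol, 5 of 12 for mitochondrial ribosomal proteins, 1 of 5 for autophagy and 2 of 5 for mating and sporulation. Mitochondrial ribosomal proteins had 6 lower with the wild-type window from 15 h, 7 with the first 3 time points or without CUP1-1 and 20 at equal clock hours, and a filter of 10 TPM left 3 autophagy and 2 mating genes. In addition 1 proteasome gene was lower and 1 autophagy gene higher without the mutant's 13 h library. The unknown depth leaves low values without an error of their own. The calls lost with the mutant's window from 12 h were those of AAT2, AGA1, AGC1, ATG10, ATG13, ATG15, ATH1, ATO2, BAP2, BTN2, CPR6, ERG11, FES1, FPS1, GPD1, HTB1, HXT1, HXT5, HXT8, IZH2, MCM6, MCM7, MRPL11, OSM1, PFK1, PFK2, PGI1, PHM6, PHO89, RGT2, SPG1, SPG4, SPO13, SSA1, TKL1 and ZRT3. Those lost with the wild-type window from 15 h were ADY2, ALD3, ALD4, ATH1, CIT2, COX5B, COX6, CPR6, HTB1, HXT5, ODC1, OSM1, PHM6, SDH1, SDH2, YAT1 and YAT2, and with a pseudocount of 5 AGC1, ATG1, ATG10, ATG13, ATH1, CLN1, FPS1, HXT8, IME1, IME2, LEU9, MAK16, MCM6, MCM7, OSM1, POL30, RGT2, SPO13 and TKL1.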

Other observations

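Among the genes farthest from wild type, some stand outside the lists. ECM13 had 28.8, 10.8, 9.83 and 10.1 TPM in the mutant, against 356, 533, 550.4 and 592 TPM in wild type (log2 difference -5.12 ± 0.30 SE, adjusted p = 5.6e-08), and LSO1, listed at or near the floor in the mutant, 1.52, 0.1, 0.233 and 0.1 TPM in the mutant, against 11.6, 22.3, 15.7 and 43.8 TPM in wild type (log2 difference -3.96 ± 0.37 SE, adjusted p = 5.5e-06). ERR3, for an enolase-related protein, had 566, 318, 189.6 and 149 TPM in the mutant, against 116, 60, 63.2 and 27.5 TPM in wild type (log2 difference 2.16 ± 0.47 SE, adjusted p = 0.0029), and within each strain its level was highest in the earliest library of the window.

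Some phosphate and amino acid genes were higher in the mutant before the loss. Of 18 phosphate genes 6 were higher and 0 lower in the mutant over 8 to 11 h against wild type over 11 to 14 h, and of 39 amino acid synthesis genes 5 were higher and 0 lower (6 and 4 higher after scaling), against 1.85% of all genes higher. After the loss 2 of the phosphate genes were higher and 4 lower, and 16 of the amino acid genes lower, against 28.6% of all genes lower. PHO84 had 482, 491, 568 and 518 TPM in the mutant and 240, 271, 215 and 232 TPM in wild type before the loss, and 127, 115, 98.3 and 82.6 TPM in the mutant and 249, 212, 183 and 154 TPM in wild type after it.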
